A study of Neurospora crassa OR74A with 26 samples.

Results

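Of the 9733 genes measured, 5 encode enzymes that bring pentose sugars into central metabolism in Neurospora crassa, a filamentous fungus that grows on plant cell walls. They were chosen by gene identifier and enzyme name and not by a measured value, although earlier results of these data were known. The set holds xr (NCU08384, xylose reductase), NCU00891 (xylitol dehydrogenase), xyk-1 (NCU11353, xylulokinase), NCU00643 (arabinitol dehydrogenase) and NCU09041 (L-xylulose reductase). All 5 were among the 8629 genes whose average over the libraries reached 1 FPKM, the filter for testing. FPKM is the number of sequenced fragments per kilobase of transcript, scaled to the mapped reads of the library.

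Polyadenylated RNA was sequenced from 26 libraries of mycelium that had grown for 16 h in sucrose medium and was then washed and placed in 1 of 3 media: Avicel, which is crystalline cellulose, medium with no carbon source, or fresh sucrose. A strain lacking clr-1 (stock FGSC 11029) and a strain lacking clr-2 (stock FGSC 15835) were each sampled after 1 h and 4 h in Avicel and in sucrose medium, with 1 library per strain, medium and time. In each strain the open reading frame of a transcription factor gene, NCU07705 for clr-1 and NCU08042 for clr-2, had been exchanged for a hygromycin resistance cassette; the sample titles call the genes cdr1 and cdr2. Wild type (stock FGSC 2489) was sampled in biological triplicate in Avicel and in sucrose medium after 1 h and 4 h and without carbon after 4 h. Single wild-type libraries cover Avicel after 30 min and 2 h and no carbon after 1 h. Each deletion is thus represented by a single strain with no replicate, and its tests use the spread between wild-type triplicates.

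Pentoses are released from the hemicelluloses of plant cell walls, mainly xylose from xylan and arabinose from its side chains. In fungi, xylose reductase turns xylose into xylitol, xylitol dehydrogenase turns xylitol into xylulose, and xylulokinase phosphorylates xylulose so that it can enter the pentose phosphate pathway. Arabinose joins the same route at xylitol: it is reduced to arabinitol, which arabinitol dehydrogenase oxidises to L-xylulose, and L-xylulose reductase then makes xylitol. xr therefore opens the xylose branch, NCU00643 and NCU09041 serve the arabinose branch, and NCU00891 and xyk-1 are shared by both.

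In the deposited coordinates, xr lies on supercontig 1 at 5518647 to 5520522, NCU00891 on supercontig 1 at 6853505 to 6854979 and NCU00643 on supercontig 1 at 7723694 to 7725193. xyk-1 lies on supercontig 3 at 1247482 to 1249619, and NCU09041 on supercontig 7 at 3828575 to 3829842. The genome build is not given in the sources used here. Each gene has 1 transcript model, and none of the 5 models overlaps another.

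The libraries hold between 11.8 and 110.6 × 1e6 reads as recovered from the deposited coverage. The lowest number in any library was 86 reads for xr, 232 for NCU00891, 290 for xyk-1, 78 for NCU00643 and 217 for NCU09041, each in a replicate 1 on sucrose. Read lengths were inferred from the same coverage and not taken from a label, here and below. By this inference, replicate 1 of each Avicel and sucrose triplicate has reads of 36 bases (1 h) or 40 bases (4 h). Replicates 2 and 3 have reads of 50 bases. The Avicel libraries at 30 min and 2 h have 36 bases, every no-carbon library has 51 and every deletion library has 50. For xr, NCU00891, xyk-1 and NCU09041, replicate 1 stood apart below the others on Avicel at 4 h, so results are given with these libraries and within a read length. clr-1 was at 6.13 to 23.1 FPKM in the 4 libraries of its deletion strain, and clr-2 was listed at 0 in the 4 libraries of its own.

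The first question was which of these genes differ when mycelium has spent 4 h on cellulose in place of sucrose. All 5 were higher on Avicel, with an adjusted p under 0.05 from limma's test on log2(FPKM + 1); of all tested genes, 34.3% were called higher in this comparison. The size differed by gene: the xylose reductase gene was higher by more than 8 on the log2 scale, the genes of the shared steps by 5.31 (NCU00891) and 4.42 (xyk-1), and the genes of the arabinose branch by 2.03 (NCU00643) and 2.56 (NCU09041). The median log2 change of the 5 was 4.42, beside 0.24 for all tested genes.

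xr had 8539.9, 36991 and 37166 FPKM on Avicel, against 63.0, 83.2 and 64.4 FPKM on sucrose. Every Avicel library was above every sucrose library, and replicate 1 was the lowest on Avicel. The log2 change was 8.33 (SE 0.67, 95% interval 6.88 to 9.78, adjusted p = 2.7e-07), which is 322-fold on the FPKM + 1 scale. By level, xr moved to place 16 among all genes on Avicel, against place 5066 on sucrose.

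NCU00891 had 2086, 9641 and 10645 FPKM on Avicel, against 243.6, 139.0 and 99.8 FPKM on sucrose. The groups did not overlap. Its log2 change was 5.31 (SE 0.51, adjusted p = 1.3e-06), or 39.6-fold. xyk-1, whose kinase commits xylulose to the pentose phosphate pathway, had 428.1, 1668 and 1594 FPKM on Avicel, against 80.2, 40.4 and 33.9 FPKM on sucrose. Again no libraries overlapped, and the log2 change was 4.42 (SE 0.45, adjusted p = 2.1e-06), or 21.4-fold. Replicate 1 was the lowest Avicel library and the highest sucrose library for both genes.

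For the arabinitol dehydrogenase gene NCU00643, the Avicel libraries held 131.3, 191.0 and 195.4 FPKM and the sucrose libraries 47.2, 38.4 and 37.2 FPKM. These groups lay apart with little spread, and the log2 change was 2.03 (SE 0.24, adjusted p = 7.1e-06). NCU09041 had 595.6, 2777 and 2718 FPKM on Avicel, against 806.6, 353.4 and 76.4 FPKM on sucrose. Here the groups overlapped, since replicate 1 was lower on Avicel than on sucrose while replicates 2 and 3 were higher. The log2 change of NCU09041 was 2.56 (SE 1.05, adjusted p = 0.0498), at the edge of the threshold. The call was lost when any of 11 of the 15 triplicate libraries was left out, among them sucrose replicate 3, without which the change was 1.63 (adjusted p = 0.218).

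Within 1 read length the 4 clear differences kept their sign. Between the 50-base libraries (2 on Avicel, 2 on sucrose) the log2 differences at 4 h were 8.97 for xr, 6.41 for NCU00891, 5.42 for xyk-1, 2.32 for NCU00643 and 4.05 for NCU09041. Between the 40-base libraries (1 each, so without a replicate check) they were 7.06 for xr, 3.09 for NCU00891, 2.40 for xyk-1, 1.45 for NCU00643 and -0.44 for NCU09041. The L-xylulose reductase gene was thus the member whose direction differed between the read lengths. Without Avicel replicate 1 the changes over all other libraries were 9.04 for xr, 6.07 for NCU00891 and 5.06 for xyk-1. In bulk mycelium, fewer cells with a transcript and less transcript per cell cannot be told apart.

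**Figure D1:**
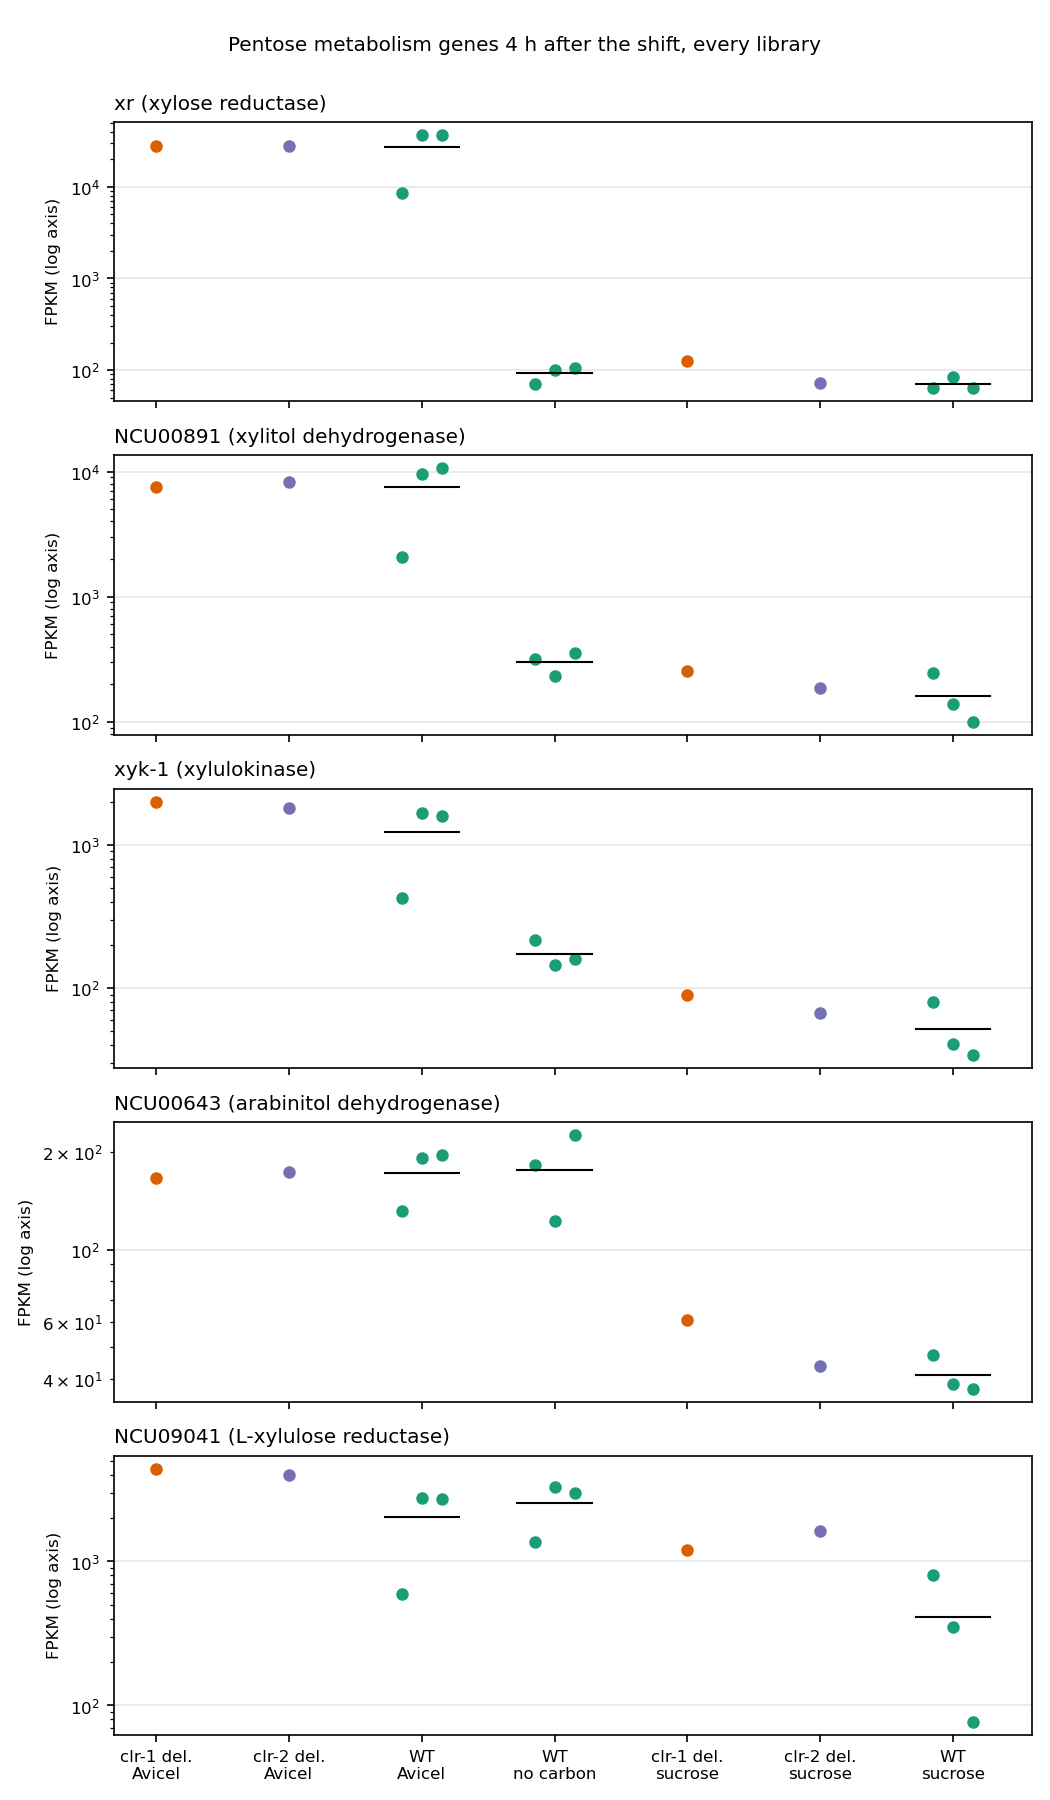
FPKM (log axis) of each pentose gene in every library taken 4 h after the shift, by strain and medium; points are libraries and black lines the means of the wild-type triplicates. The deletion libraries on Avicel (27824 and 27883 FPKM for xr) lie within the range of the wild-type Avicel libraries for xr, NCU00891 and NCU00643 and above it for xyk-1 and NCU09041, and NCU09041 is the only gene whose wild-type Avicel and sucrose libraries overlap.

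Avicel differs from sucrose both in the cellulose present and in the sucrose missing, and the no-carbon medium keeps these apart. On Avicel at 4 h, 3 of the 5 genes were higher than without carbon, and of all tested genes 3.66% were. These were the gene that opens the xylose branch and the genes of both shared steps. The 2 genes of the arabinose branch did not pass. This comparison shares its Avicel libraries with the one above.

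xr had 8539.9, 36991 and 37166 FPKM on Avicel, against 70.6, 99.6 and 105.8 FPKM without carbon, with no overlap (log2 change 7.96, SE 0.67, adjusted p = 4.5e-06). NCU00891 had 319.2, 230.4 and 355.3 FPKM without carbon, all below its Avicel libraries (log2 change 4.33, SE 0.51, adjusted p = 1.1e-04). The no-carbon libraries held 215.1, 144.0 and 158.3 FPKM of xyk-1, also below the lowest Avicel library at 428.1 FPKM (log2 change 2.61, SE 0.45, adjusted p = 0.0025). The xyk-1 call was lost when the fit held the 2 groups compared alone (adjusted p = 0.0572). Without Avicel replicate 1 the changes were 8.66 for xr, 5.09 for NCU00891 and 3.26 for xyk-1.

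NCU00643 had 182.0, 122.2 and 225.5 FPKM without carbon, on both sides of its Avicel libraries at 131.3, 191.0 and 195.4 FPKM. Its log2 change, Avicel over no carbon, was -0.01 with a 95% interval of -0.52 to 0.50 (adjusted p = 0.987). NCU09041 had 1365 FPKM in the lowest no-carbon library and 3294 and 2996 FPKM in the others, which overlapped the Avicel libraries (log2 change -0.53, interval -2.78 to 1.73, adjusted p = 0.853). All no-carbon libraries have 51-base reads, so medium and read length cannot be told apart between them and the 50-base libraries.

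Loss of sucrose without any new carbon source was addressed by comparing the no-carbon libraries with those on sucrose at 4 h. Both arabinose-branch genes and xyk-1 were higher without carbon, 3 of 5 in all, beside 39.6% of all tested genes. The libraries are those already used above. NCU00643 was higher by 2.05 (SE 0.24, adjusted p = 6.1e-06), a change close to its 2.03 on Avicel over sucrose. NCU09041, whose no-carbon libraries were all above its sucrose libraries, was higher by 3.08 (SE 1.05, adjusted p = 0.0195). That call was lost without no-carbon replicate 2 or 3 or without sucrose replicate 3, where the change was 2.15 (adjusted p = 0.1). xyk-1 was higher by 1.80 (SE 0.45, adjusted p = 0.00313) with no overlap.

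The xylose reductase gene did not pass between these media (log2 change 0.38, interval -1.07 to 1.82, adjusted p = 0.642), and its libraries overlapped. NCU00891 did not pass either (0.98, interval -0.12 to 2.08, adjusted p = 0.11). NCU00891 passed at 1.33 without the 36- and 40-base triplicate libraries (adjusted p = 1.8e-04), and at 0.98 both without Avicel 4 h replicate 1 (adjusted p = 0.0129) and with only these groups in the fit (adjusted p = 0.0465). At 1 h, the lone no-carbon library held 91.5 FPKM of xr, 279.0 of NCU00891, 281.3 of xyk-1, 281.3 of NCU00643 and 422.2 of NCU09041. Against sucrose at 1 h, 2 of the 5 genes were higher without carbon, beside 35.5% of all tested genes: NCU00643 by 3.12 (adjusted p = 5.2e-06) and xyk-1 by 1.94 (adjusted p = 0.0177). NCU00891 (1.18, adjusted p = 0.173) passed there without Avicel 4 h replicate 1 (adjusted p = 0.0298) and with only these groups in the fit (adjusted p = 0.0471). Without the 36- and 40-base triplicate libraries xr passed at 0.69 (adjusted p = 0.0337) and NCU00891 at 1.03 (adjusted p = 0.00566), besides NCU00643 and xyk-1. The 35.5% is of the fit with all libraries, and the share of all tested genes without the short-read libraries is not given here.

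**Figure D2:**
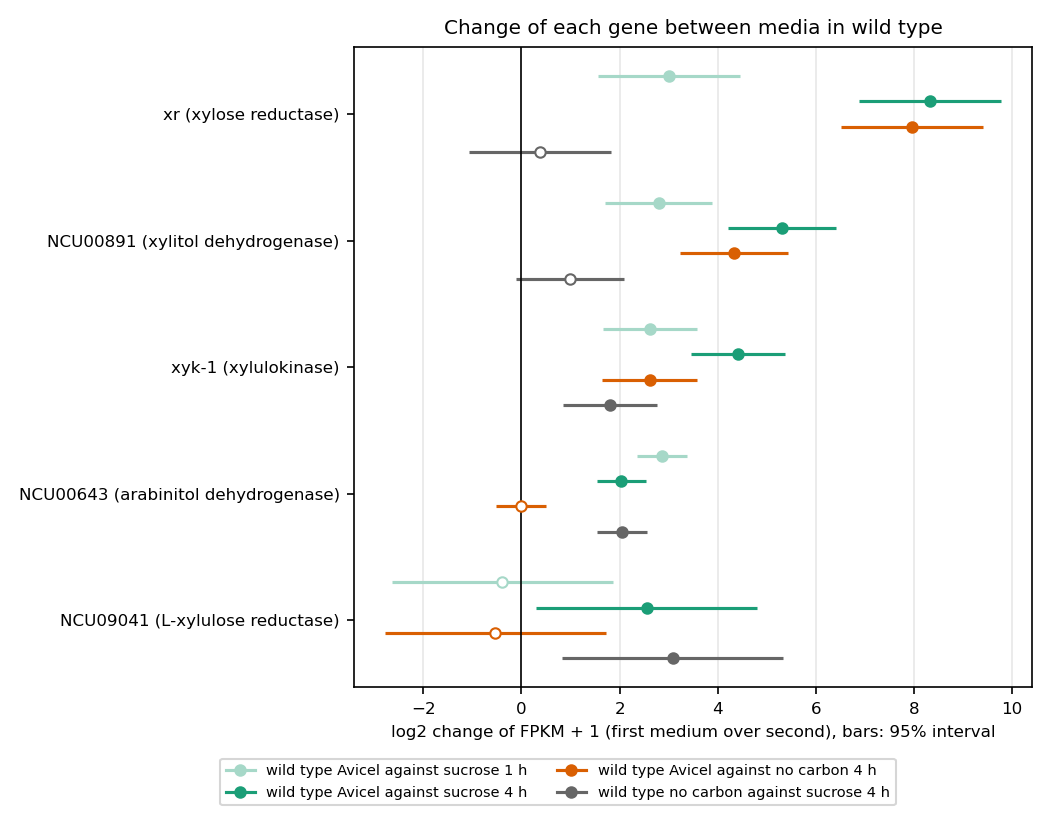
log2 change of FPKM + 1 of each pentose gene between media in wild type (points) with 95% intervals (bars); filled points passed an adjusted p of 0.05 and open points did not. In the order drawn, the change of Avicel over no carbon at 4 h is 7.96 for xr, 4.33 for NCU00891, 2.61 for xyk-1, -0.01 for NCU00643 and -0.53 for NCU09041.

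The time points show how early the genes differed. At 1 h after the shift, 4 of the 5 genes were already higher on Avicel than on sucrose, beside 37.3% of all tested genes. xr had 109.7, 697.3 and 864.1 FPKM on Avicel, against 38.7, 56.1 and 56.9 FPKM on sucrose (log2 change 3.0, SE 0.67, adjusted p = 0.00162). All Avicel libraries were above the sucrose libraries, and the 36-base replicate 1 was far below the 50-base ones. Without it the change of xr was 3.93.

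NCU00891 had 635.7, 988.7 and 992.3 FPKM on Avicel at 1 h, against 98.4, 140.1 and 132.2 FPKM on sucrose (log2 change 2.80, adjusted p = 3.3e-04). xyk-1 had 363.1, 459.8 and 548.5 FPKM on Avicel, against 79.9, 63.4 and 75 FPKM on sucrose (2.62, adjusted p = 1.9e-04). The arabinitol dehydrogenase gene had 231.4, 245.6 and 231.9 FPKM on Avicel, against 28.5, 37.4 and 29.4 FPKM on sucrose (2.87, SE 0.24, adjusted p = 3.2e-07). None of these 3 genes overlapped between the media, although the share of all tested genes without overlap was not computed. NCU00643 had the least spread of the 5. NCU09041 had 75.3, 477.6 and 561.9 FPKM on Avicel, against 85.3, 717.5 and 755.0 FPKM on sucrose, and did not pass (-0.40, interval -2.65 to 1.86, adjusted p = 0.763). In both media its 36-base library was the low one, by a wide margin.

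Between Avicel and no carbon at 1 h, limma called 0 of the 5 genes, beside 0.788% of all tested genes called in either direction; at an unadjusted p under 0.05 there were 2, xr (log2 change 2.13, adjusted p = 0.36) and NCU00891 (1.61, adjusted p = 0.36). xr was called without Avicel 1 h replicate 1 (3.07, adjusted p = 0.0252). Without the 36- and 40-base triplicate libraries, xr was called higher by 3.07 (adjusted p = 3.4e-04), NCU00891 by 1.82 (adjusted p = 0.00187) and xyk-1 by 0.83 (adjusted p = 0.0327). The 0.788% is of the fit with all libraries, and the share of all tested genes without the short-read libraries is not given here.

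The difference between Avicel and sucrose was larger at 4 h than at 1 h for 3 of the 5 genes by the interaction test, beside 14.8% of all tested genes. The change in the difference was 5.33 for xr (SE 0.95, adjusted p = 0.0013), 2.51 for NCU00891 (SE 0.72, adjusted p = 0.0184) and 1.79 for xyk-1 (SE 0.63, adjusted p = 0.0453). The xyk-1 call was lost when any of 13 of the 15 triplicate libraries was left out, with changes of 1.46 to 1.94 there and an adjusted p of at most 0.11, and it was lost with replicate number as a block (adjusted p = 0.0618). NCU00643 had a change of -0.83 (interval -1.55 to -0.12, adjusted p = 0.0737) and NCU09041 of 2.95 (interval -0.23 to 6.14, adjusted p = 0.147), and neither passed. NCU00643 passed without no-carbon replicate 2 (adjusted p = 0.0438), and NCU09041 without sucrose 1 h replicate 1 (3.98, adjusted p = 0.0442). For NCU09041 the change was 4.56 without the 36- and 40-base triplicate libraries (adjusted p = 0.00257).

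On Avicel itself, xr was higher at 4 h than at 1 h by 5.81 (SE 0.67, adjusted p = 3.3e-05), NCU00891 by 2.81 (SE 0.51, adjusted p = 9.4e-04) and xyk-1 by 1.21 (SE 0.45, adjusted p = 0.0482). These are 3 of 5 genes, beside 17.3% of all tested genes called higher at 4 h. Without Avicel 1 h replicate 1 the change of xr was 4.87. Without Avicel 4 h replicate 1 the changes were 6.51 for xr, 3.57 for NCU00891 and 1.85 for xyk-1. The xyk-1 call is again near the threshold: its libraries at the 2 times overlapped, and the call was lost when any of 13 of the 15 triplicate libraries was left out (0.87 to 1.35 there). NCU00643 had the opposite sign, -0.47 (adjusted p = 0.132), and NCU09041 had 2.59 (adjusted p = 0.0676); neither passed, although NCU09041 did without Avicel 4 h replicate 1 (3.33) or sucrose 1 h replicate 1. On sucrose limma called 0 of 5 between 4 h and 1 h, with 0 at an unadjusted p under 0.05, beside 7.61% of all tested genes called in either direction. Without carbon it likewise called 0 of 5, with 0 at an unadjusted p under 0.05, beside 21.0% in either direction. Without the 36- and 40-base triplicate libraries, xyk-1 and NCU09041 passed in both media: by -0.88 and -2.15 on sucrose and by -0.72 and 2.49 without carbon. The percentages given for these media are of the fit with all libraries.

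The short-read Avicel libraries form a series of their own, with 1 library per time and so no test. The 4 h library has 40-base reads and the earlier ones have 36-base reads. xr had 82.6 FPKM at 30 min, 109.7 at 1 h, 1116 at 2 h and 8539.9 at 4 h, a steep climb after the first hour within this series. The other Avicel replicates, with longer reads, had 697.3 and 864.1 FPKM of xr at 1 h. At 4 h they had 36991 and 37166 FPKM. The timing seen for xr thus depends on which library stands for each time. NCU00891 was already at 589.2 FPKM at 30 min, followed by 635.7, 1112 and 2086 FPKM at 1, 2 and 4 h. xyk-1 had 292.7, 363.1, 1132 and 428.1 FPKM at these times, highest at 2 h within this series. The other Avicel replicates at 4 h had 1668 and 1594 FPKM of xyk-1, above the 2 h library. NCU00643 ran the other way, with 382.5 FPKM at 30 min and then 231.4, 195.7 and 131.3 FPKM. NCU09041 had 343.4, 75.3, 142.1 and 595.6 FPKM, with no single direction.

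**Figure D3:**
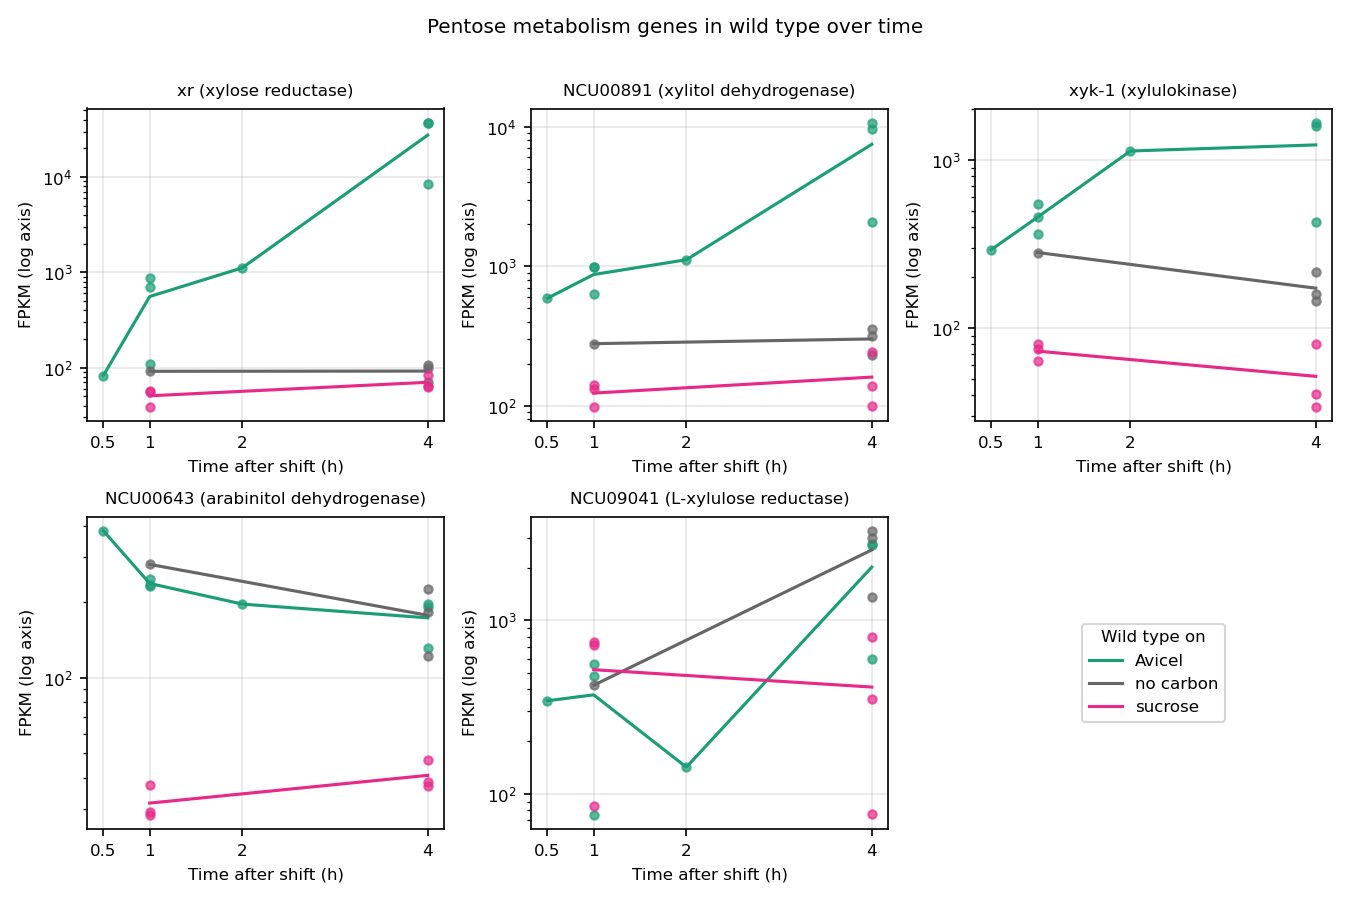
FPKM (log axis) of each pentose gene in wild type against hours after the shift on Avicel, without carbon and on sucrose; points are libraries and lines join the group means. On Avicel xr and NCU00891 are highest at 4 h, whereas NCU00643 is highest at 30 min (382.5 FPKM). The xyk-1 mean is also highest at 4 h (1230 FPKM), although 1 library there (428.1 FPKM) lies below the 2 h library (1132 FPKM).

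Across the 5 wild-type triplicate groups the order of the mean levels was the same for xr and NCU00891: Avicel at 4 h, Avicel at 1 h, no carbon at 4 h, sucrose at 4 h and sucrose at 1 h. For xr the means ± SD (n = 3 each) in that order were 27565 ± 16477, 557.0 ± 396.3, 91.97 ± 18.8, 70.2 ± 11.3 and 50.6 ± 10.3 FPKM. The no-carbon and 4 h sucrose libraries of xr overlapped, and the other neighbours in the order did not. For NCU00891 the means were 7457 ± 4679, 872.2 ± 204.8, 301.6 ± 64.3, 160.8 ± 74.3 and 123.6 ± 22.1 FPKM, with overlap among the last 3. xyk-1 followed the same order, with 1230.1 ± 695.5, 457.1 ± 92.7 and 172.5 ± 37.6 FPKM, apart from the sucrose groups, where 1 h (72.8 ± 8.5 FPKM) and 4 h (51.5 ± 25.1 FPKM) overlapped.

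NCU00643 had its highest triplicate mean on Avicel at 1 h (236.3 ± 8.1 FPKM). No carbon at 4 h (176.6 ± 51.9 FPKM) and Avicel at 4 h (172.6 ± 35.8 FPKM) came next and overlapped, and sucrose was lowest at 4 h (40.9 ± 5.5 FPKM) and 1 h (31.8 ± 4.9 FPKM). NCU09041 was highest without carbon at 4 h (2552 ± 1039 FPKM) and on Avicel at 4 h (2030.2 ± 1243 FPKM), and every pair of neighbours in its order overlapped. Compared per length, the mean FPKM of xr was 22.4 times that of xyk-1 on Avicel at 4 h, against 0.533 times without carbon and 1.36 times on sucrose at 4 h.

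The next question was whether the deletion strains, whose missing transcription factors the series title ties to cellulase genes, differ in these genes. None of the 5 was called lower or higher than wild type on Avicel at 4 h in either strain by limma, and 0 had an unadjusted p under 0.05. Of all tested genes, 1.26% were called in either direction in the clr-1 deletion and 1.01% in the clr-2 deletion. With 1 library per strain the intervals are wide and do not show that the strains are alike.

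xr had 27824 FPKM in the clr-1 deletion and 27883 FPKM in the clr-2 deletion, between the lowest (8539.9 FPKM) and the 2 higher wild-type libraries. The log2 change was 0.29 in both, with 95% intervals of -1.76 to 2.34 for clr-1 and -1.75 to 2.34 for clr-2. Both deletion libraries had xr among their highest transcripts, at place 8 in the clr-1 deletion and place 9 in the clr-2 deletion. NCU00891 had 7511 and 8284 FPKM in the clr-1 and clr-2 deletions, also inside the wild-type range (changes 0.33 and 0.47, intervals -1.23 to 1.88 and -1.08 to 2.02).

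xyk-1 had 1999 FPKM in the clr-1 deletion and 1798 FPKM in the clr-2 deletion, both above the highest wild-type library at 1668 FPKM. The changes were 0.94 (interval -0.43 to 2.30) and 0.78 (interval -0.58 to 2.15). NCU00643 had 166.2 and 173.2 FPKM, with changes of -0.03 (interval -0.75 to 0.69) and 0.03 (interval -0.69 to 0.74), the narrowest of the set. NCU09041 had 4418 and 4000 FPKM, above its highest wild-type library at 2777 FPKM, with changes of 1.42 (interval -1.77 to 4.61) and 1.28 (interval -1.91 to 4.46). The adjusted p lay between 0.972 and 0.998 for the clr-1 deletion and was 1 for all 5 genes in the clr-2 deletion.

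Set against the 50-base wild-type libraries alone, the signs for xr and NCU00891 turned: xr was at -0.41 in both strains, and NCU00891 at -0.43 in the clr-1 and -0.29 in the clr-2 deletion. The intervals were narrower there, at -0.99 to 0.16 and -0.98 to 0.16 for xr, and still 0 of the 5 genes passed. At 1 h on Avicel the clr-1 deletion held 744.3 FPKM of xr, 878.8 of NCU00891, 377.6 of xyk-1, 228.3 of NCU00643 and 670.7 of NCU09041, and the clr-2 deletion 660.8, 831.4, 398.5, 227.8 and 536.4 FPKM. Again limma called 0 of 5 in either strain, with 0 at an unadjusted p under 0.05; of all tested genes, 0.0116% and 0.0579% were called in either direction.

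**Figure D4:**
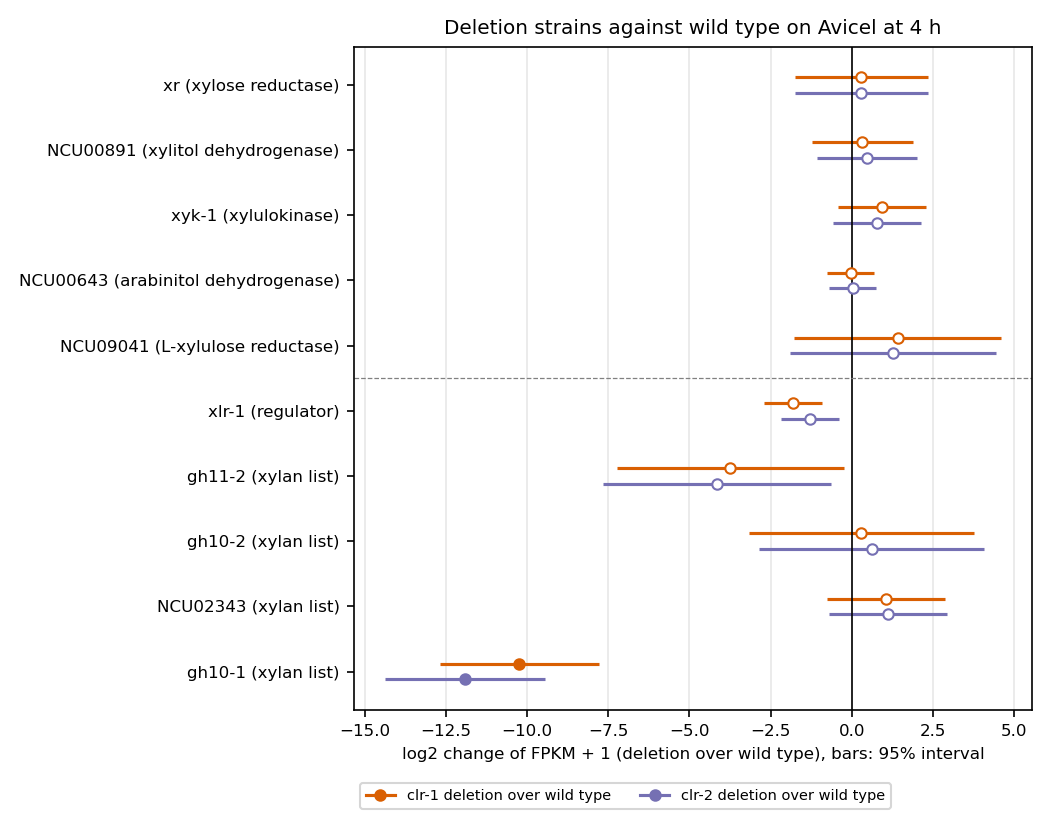
log2 change of FPKM + 1 in the clr-1 and clr-2 deletions over wild type on Avicel at 4 h (points) with 95% intervals (bars) for the 5 pentose genes above the dashed line and, below it, xlr-1 and the 4 most abundant genes of the xylan list; filled points passed an adjusted p of 0.05. Only gh10-1, at -10.24 and -11.92, is filled among those drawn.

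Each deletion strain also had its own Avicel and sucrose libraries. Between them at 4 h, 4 of the 5 genes were higher on Avicel in either strain, beside 15.2% of all tested genes in the clr-1 deletion and 17.7% in the clr-2 deletion. In the clr-1 deletion the log2 changes were 7.79 for xr (27824 FPKM on Avicel, 125.1 on sucrose), 4.88 for NCU00891 (7511 and 253.6), 4.46 for xyk-1 (1999 and 90.0) and 1.44 for NCU00643 (166.2 and 60.5). In the clr-2 deletion they were 8.59 for xr, 5.47 for NCU00891, 4.72 for xyk-1 and 1.96 for NCU00643. NCU09041 did not pass in either strain: it had 4418 FPKM on Avicel and 1206 on sucrose in the clr-1 deletion (1.87, adjusted p = 0.484), and 4000 and 1620 FPKM in the clr-2 deletion (1.30, adjusted p = 0.638).

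Against wild type without carbon at 4 h, the same genes as in wild type were higher on Avicel in both deletions, 3 of 5 in each, beside 0.313% and 0.359% of all tested genes. xr was higher by 8.25 in both strains (adjusted p = 8.2e-04 for clr-1 and 6.5e-04 for clr-2). NCU00891 was higher by 4.66 in the clr-1 deletion and 4.80 in the clr-2 deletion, and xyk-1 by 3.55 (adjusted p = 0.0228) and 3.40 (adjusted p = 0.0289). The xyk-1 calls were lost without no-carbon replicate 2 or 3 (adjusted p of 0.0639 and 0.0686 for clr-1, 0.0866 and 0.0867 for clr-2). For clr-2 the call was also lost without wild-type Avicel 1 h replicate 2 (adjusted p = 0.0515) or sucrose 1 h replicate 3 (adjusted p = 0.0546). With only the groups compared in the fit, the xyk-1 call was lost for both strains.

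On sucrose, limma called 0 of the 5 genes in either deletion at 1 h or 4 h; at an unadjusted p under 0.05 there was 1, NCU00643 in the clr-1 deletion at 1 h (58.6 FPKM, against 28.5, 37.4 and 29.4 FPKM in wild type; log2 change 0.87, adjusted p = 0.867). NCU09041 had 1206 FPKM in the clr-1 and 1620 FPKM in the clr-2 deletion at 4 h, above the wild-type libraries at 806.6, 353.4 and 76.4 FPKM. Its changes of 2.10 (adjusted p = 0.757) and 2.53 (adjusted p = 0.943) did not pass, but against the 50-base wild-type libraries they were 2.87 (adjusted p = 0.028) and 3.29 (adjusted p = 0.0227). In that fit the clr-1 deletion also had NCU00891 higher by 1.10 and xyk-1 by 1.26 on sucrose. With all libraries in the fit, 0.0695% (clr-1) and 0.0811% (clr-2) of all tested genes were called in either direction at 4 h. At 1 h they were 0.0464% (clr-1) and 0.0695% (clr-2). The shares for the fit against the 50-base wild-type libraries are not given here.

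The surroundings of the pathway were described with 4 lists of genes named by identifier. Of 14 genes for xylan degradation, which frees the pentoses, 13 were higher on Avicel than on sucrose at 4 h and 12 were higher than without carbon, beside 34.3% and 3.66% of all tested genes. The median log2 changes of the list were 8.3 and 6.28, beside 0.24 and -0.15 for all tested genes. In the deletions on Avicel at 4 h, 5 of the 14 were lower in the clr-1 and 6 in the clr-2 deletion, beside 1.07% and 0.904% of all tested genes called lower, and the others did not pass. The xylanase gene gh10-1 had 14.1 FPKM in the clr-1 and 3.74 FPKM in the clr-2 deletion, against 19790 ± 9680 FPKM in wild type (n = 3; log2 changes -10.24 and -11.92, adjusted p = 1.5e-04 and 3.0e-05). Another xylanase gene, gh10-2, had 39190 and 48630 FPKM in the deletions, against 38120 ± 22500 FPKM in wild type (changes 0.30 and 0.62), and did not pass. The most abundant of the list, gh11-2, had 7716 and 5807 FPKM, against 104700 ± 21100 FPKM (changes -3.74 and -4.15, adjusted p = 0.639 and 0.764). NCU02343, also on the list, had 14510 and 15020 FPKM, against 9312 ± 6340 FPKM, and did not pass.

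Of 8 sugar transporter genes, 7 were higher on Avicel than on sucrose at 4 h and 2 were higher than without carbon, beside 34.3% and 3.66% of all tested genes. In the deletions on Avicel 0 of 8 passed at either sign, beside 1.26% (clr-1) and 1.01% (clr-2) of all tested genes. Against the 50-base wild-type libraries alone, NCU05627 was higher in the clr-1 deletion by 2.64 (adjusted p = 0.0369). The 2 above the no-carbon level were NCU06138 and cdt-2, a transporter known for cellodextrins, which had 56480 ± 19700 FPKM on Avicel, against 495.0 ± 26.9 FPKM without carbon and 22.3 ± 23.9 FPKM on sucrose (n = 3 each). Downstream, the pentose phosphate genes did not share one direction: on Avicel over sucrose 1 of 5 was higher and 3 were lower, with a median of -0.80, beside 34.3% of all tested genes called higher and 24.2% called lower. NCU06123 was higher by 4.82 (adjusted p = 6.5e-05), whereas ppm-2 (-1.61), NCU02136 (-1.12) and NCU09111 (-0.80) were lower. Between no carbon and sucrose NCU06123 was again higher and the other 4 were lower, beside 39.6% and 23.6% of all tested genes. In the deletions on Avicel 0 of these 5 passed, beside 1.26% and 1.01% of all tested genes, although NCU01328 was lower in the clr-1 deletion against the 50-base wild-type libraries alone (-0.88, adjusted p = 0.0283).

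Among 5 regulator genes, 4 were higher on Avicel than on sucrose at 4 h, beside 34.3% of all tested genes, and cre-1, known as the carbon catabolite repressor, did not pass (-1.39, adjusted p = 0.0952). xlr-1, known as a regulator of xylan and xylose genes, had 1157 ± 161 FPKM on Avicel, against 334.0 ± 11.9 FPKM without carbon and 8.79 ± 2.95 FPKM on sucrose (n = 3 each; log2 change over sucrose 6.93, adjusted p = 1.1e-09). In the deletions xlr-1 had 325.4 FPKM (clr-1) and 469.4 FPKM (clr-2) on Avicel at 4 h, with changes of -1.82 (adjusted p = 0.056) and -1.29 (adjusted p = 0.423), which passed against the 50-base wild-type libraries alone at -1.93 (adjusted p = 6.5e-05) and -1.40 (adjusted p = 7.1e-04). NCU05414 was higher on Avicel than on sucrose by 6.78 and had 294.6 and 287.9 FPKM in the deletions, against 409.4 ± 101 FPKM in wild type. clr-1 and clr-2 complete the 4 higher regulators. Against the 50-base wild-type libraries alone, the change of clr-2 in the clr-1 deletion on Avicel at 4 h was -6.23.

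Likeness between genes was measured as the root mean square difference of centred log2(FPKM + 1) group means over the 16 groups, where a small value means a similar profile; the groups share libraries and depth, so this is a description only. The profile of NCU00891 lay closest to NCU04170 (0.63), xyk-1 (0.72) and NCU09705 (0.73), so that xyk-1 was at place 2 among all tested genes. xyk-1 lay closest to NCU06490 (0.62), NCU09705 (0.65) and NCU04167 (0.66), and NCU00891 was at place 5 among its nearest genes. xr, whose group means spanned 9.31 on the log2 scale, lay closest to NCU06143 (1.15), NCU07510 (1.25) and NCU02343 (1.26), a member of the xylan list, with NCU00891 again at place 5. NCU00643, with a span of 3.56, lay closest to NCU05427 (0.23), NCU06487 (0.27) and NCU06610 (0.28), and its distance from xr was 2.94. NCU09041, with a span of 4.95, lay closest to NCU05151 (0.52), NCU04887 (0.64) and NCU04436 (0.72), and no other pathway gene was near it (1.90 to 2.94).

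In the authors' deposited table of DESeq results for Avicel and sucrose at 4 h, the fold of the second over the first column was 334.0 for xr, 38.8 for NCU00891, 19.7 for xyk-1, 3.79 for NCU00643 and 4.17 for NCU09041, and the column headed Avicel held the lower mean. In the FPKM the same genes are higher on Avicel, and over the 4474 genes with at least a 2-fold FPKM change the deposited fold had the sign of Avicel over sucrose for 99.6%, so it is read here in that direction. The authors' deposited edgeR table gives log2 fold changes of the opposite sign, -9.01, -5.88, -4.90, -2.47 and -2.62 for the 5 genes in this order. For NCU09041, at the threshold in the FPKM, the authors' deposited tables give adjusted p values of 7.21e-11 (DESeq) and 7.67e-05 (edgeR). For Avicel and no carbon the authors' deposited DESeq table gives 292.0 for xr, 24.2 for NCU00891, 7.50 for xyk-1, 1.00 for NCU00643 and 0.79 for NCU09041, the last 2 with an adjusted p of 1. xr, NCU00891 and xyk-1 are in the authors' deposited list of clustered genes, which holds 212 of the 9733 genes, and NCU00643 and NCU09041 are not. The list was drawn from genes differing at 4 h in these same data, so it gives no separate support.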

How the data were processed

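RNA-seq of 26 libraries in 16 groups was used as deposited. The authors made FPKM per transcript with TopHat and Cufflinks 0.9.3, per the submitters' processing notes; the build and annotation are not given in the sources used here. The deposited files also hold a coverage signal and transcript lengths. Coverage times length over read length gave whole reads (tolerance 0.02) for 87.5% to 93.0% of transcripts under 200 reads. The recovered reads served only as depth checks. The inferred read lengths also set which libraries were compared within a read length. They likewise set which triplicate libraries were left out of the alternative fit without short reads. HTSeq, DESeq and edgeR are also named in the notes: the authors' DESeq tables give mean scaled counts (a score) with a fold ratio and adjusted p-values. Log2 fold changes with p-values make up the authors' edgeR tables. The authors' cluster table holds a score, of which only the gene IDs were used.

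The 9907 transcripts were summed to 9733 genes. The reference table (assembly NC12) lists 8914 of these and gives 2 of the 5 pentose genes a symbol. For the 8629 genes averaging 1 FPKM or more, log2(FPKM + 1) of all libraries was fitted with a mean for each group in limma 3.58.1 (R 4.3.3; residual degrees of freedom 10, prior 3.35, eBayes with trend). All tests were two-sided; p-values were adjusted by the Benjamini-Hochberg method within each comparison, and a gene was called when the result was under 0.05. Fold changes on this scale understate those of low genes. The script was tested on simulated data. A difference of Avicel over sucrose at 4 h minus that at 1 h is the interaction test. Means and SD are of FPKM, and changes and SE of log2 values. Deposited starts count from 0 and are printed from 1. Same-numbered Avicel and sucrose replicates deviated together from their group means at 4 h (r of 0.121 to 0.183) and at 1 h (0.176 to 0.283). Replicates 2 and 3 of unlike number did so too, with r of 0.174 and 0.188 at 1 h and 0.06 and 0.161 at 4 h. Replicate 1 also shares a short read length, so pairing by number cannot be told apart from replicate 1 standing apart. The numbers served as a block only in an alternative fit, which rests on the deposited FPKM and not on a label. No pair of libraries is identical, and 0 sample columns were left unused.

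The genes and lists were chosen with earlier results of these data known. Named genes are the 5 pentose genes, the regulators, up to 4 genes of each other list with the highest mean FPKM, other list members where a count of 5 or fewer calls for the name, and the 3 nearest genes by profile. Alternatives were other pseudocounts, filters, scaling, variance models, samples in the fit, a replicate block, each triplicate library left out, and the 36- and 40-base triplicate libraries left out.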

Additional observations from a re-analysis of the deposited data

Results flagged for a closer look

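The Avicel response, which is the log2 difference of Avicel over sucrose in wild type, differed between 4 h and 1 h by an interaction test for 3 pentose genes. It was larger at 4 h by 5.33 for xr, by 2.51 for NCU00891 and by 1.79 for xyk-1 (adjusted p = 0.0013, 0.0184 and 0.0453). The xr response was 8.33 at 4 h, against 3.0 at 1 h, and the change was 4.40 without Avicel 1 h replicate 1 and 6.04 without Avicel 4 h replicate 1. For NCU00891 the change was 3.27 without Avicel 4 h replicate 1. For xyk-1 it was 2.44 without that library, and the adjusted p was between 0.00143 and 0.11 over the 15 libraries left out in turn. Between the 50-base libraries the Avicel response at 4 h was 8.97 for xr, 6.41 for NCU00891 and 5.42 for xyk-1, against 3.76, 2.85 and 2.85 at 1 h. Why the response differs between the times was not tested.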

How the results depend on the processing

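The log2 changes of the 5 genes were recomputed in 2665 combinations of gene, comparison and alternative. Of these, 2522 kept their direction and side of the threshold, 63 lost a call and 27 gained one. The sign turned in 53 values that were uncalled in both fits and in 0 called values. The count of called genes among the 5 stayed within 1.5 times for the wild-type media comparisons at 4 h, Avicel over sucrose at 1 h, the interaction and the deletions on Avicel at 4 h. Of the lost calls, 18 concern xyk-1 in the interaction (1.46 to 2.44 over libraries left out, adjusted p 0.00143 to 0.11), 18 xyk-1 on Avicel at 4 h over 1 h (0.87 to 1.85, adjusted p 9.8e-04 to 0.181) and 15 NCU09041 on Avicel over sucrose at 4 h (1.63 to 3.32, adjusted p 0.0234 to 0.218); the cause was not tested. With only the groups compared in the fit, these had an adjusted p of 0.0713, 0.149 and 0.08.

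Rescaling by the median of gene ratios moved the median of all genes by up to -0.17 (no carbon over sucrose, 1 h), -0.14 (Avicel over sucrose, 1 h) and 0.12 (the interaction), and changed no call of the 5 genes. Over all genes, leaving out the 36- and 40-base triplicate libraries gave 1145 calls for Avicel over no carbon at 4 h (465 with them), 383 for the clr-1 deletion (109) and 194 for the clr-2 deletion (87) on Avicel at 4 h; with only the groups compared the deletions gave 0 and 3. Leaving out 1 library gave 300 to 607 calls for Avicel over no carbon.

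Over all triplicate groups, 15 of 30 same-number pairs had a correlation of deviations over 0.1 (-0.314 to 0.453). Every same-number pair did for Avicel with sucrose at the same time, and not for the other pairs of groups. Unlike-numbered replicates 2 and 3 of these media were also over 0.1 at 1 h (0.174 and 0.188), so the values do not establish pairing by number. With the replicate block, xyk-1 lost its call in the interaction (1.79, adjusted p = 0.0618) and on Avicel at 4 h over 1 h (1.21, adjusted p = 0.0654), and NCU09041 gained one there (2.59, adjusted p = 0.0458); it changed no other call of the 5 genes. The lowest number of reads of any of the 5 genes in a library was 78 (NCU00643).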
